A study of Mus musculus with 17 samples.

Results

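The 8 genes Lyz2, Grn, Fcer1g, Coro1a, Mpeg1, S100a9, S100a8 and Tyrobp, chosen by name as mRNAs of neutrophils, monocytes and macrophages, were followed among the 49585 genes counted in cell-free RNA (cfRNA) of mouse plasma. The study compared 3 groups of wild type C57BL/6J mice aged 13 weeks in the MHU-1 mission. The MG group was kept in microgravity on the International Space Station, the AG group was kept there under artificial 1-G on a rotating platform, and the GC group stayed on the ground. AG and MG had 6 libraries each and GC had 5, with 1 mouse per library. Strain, age and genotype were the same in all 3 groups. RNA came from 50 µl of plasma cleared of cell debris, and 2.5 µl of it entered a small RNA library kit, a choice the labels put down to degraded RNA.

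Myeloid cells are the white cells of innate immunity. Neutrophils and monocytes circulate in blood, and macrophages live in tissues, where they take up and digest microbes and dying cells. The mRNAs found in plasma are fragments released from cells of blood and tissues. The products of the 8 genes fall into 3 roles. Lysozyme (Lyz2), progranulin (Grn) and perforin-2 (Mpeg1) belong to the lysosome and to the killing of microbes, S100a8 and S100a9 form the calcium-binding calprotectin of neutrophils, and Fcer1g, Tyrobp and Coro1a serve receptor signaling and the actin cytoskeleton. In a bulk sample such as plasma, RNA from fewer cells and less RNA per cell cannot be told apart.

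The libraries were shallow. Total counts ran from 115515 to 277682 in AG, from 113746 to 223189 in MG and from 84657 to 195103 in GC. The 4 genes that exceeded 5% of any library, Tmem38b, Polr2m, Lars2 and Rn18s-rs5, held 89.7% ± 1.85 of counts in AG (SD, n = 6), against 76.9% ± 4.60 in MG (n = 6) and 79.7% ± 2.73 in GC (n = 5). Levels were therefore scaled by the trimmed mean of M-values (TMM), which sets libraries to a common level over most genes, and are given as TMM-normalized CPM, where CPM is a count set against the total of its library. The factors ranged from 0.484 to 0.929 in AG, from 0.587 to 1.89 in MG and from 0.537 to 1.70 in GC. A single read was worth 3.53 to 14.9 TMM-normalized CPM, depending on the library.

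The 8 genes together took 791 of 2749638 reads, or 0.0288% of all counts and 0.172% of the counts outside the 4 large genes. Lyz2 with 356 reads, Grn with 210 and Fcer1g with 127 made up 87.6% of them. Coro1a followed with 52 reads, Mpeg1 with 20, S100a9 with 13, S100a8 with 8 and Tyrobp with 5. Lyz2 and Grn were detected in all 17 libraries and Fcer1g in 16, whereas S100a8 and S100a9 were each detected in 5 libraries and Tyrobp in 4. Per length, the median RPKM over the 17 libraries was 3.47 for Lyz2, 1.79 for Fcer1g, 0.794 for Grn and 0.313 for Coro1a. Mpeg1 had a median of 0.0235, and the medians of S100a8, S100a9 and Tyrobp were 0.

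**Figure D1:**
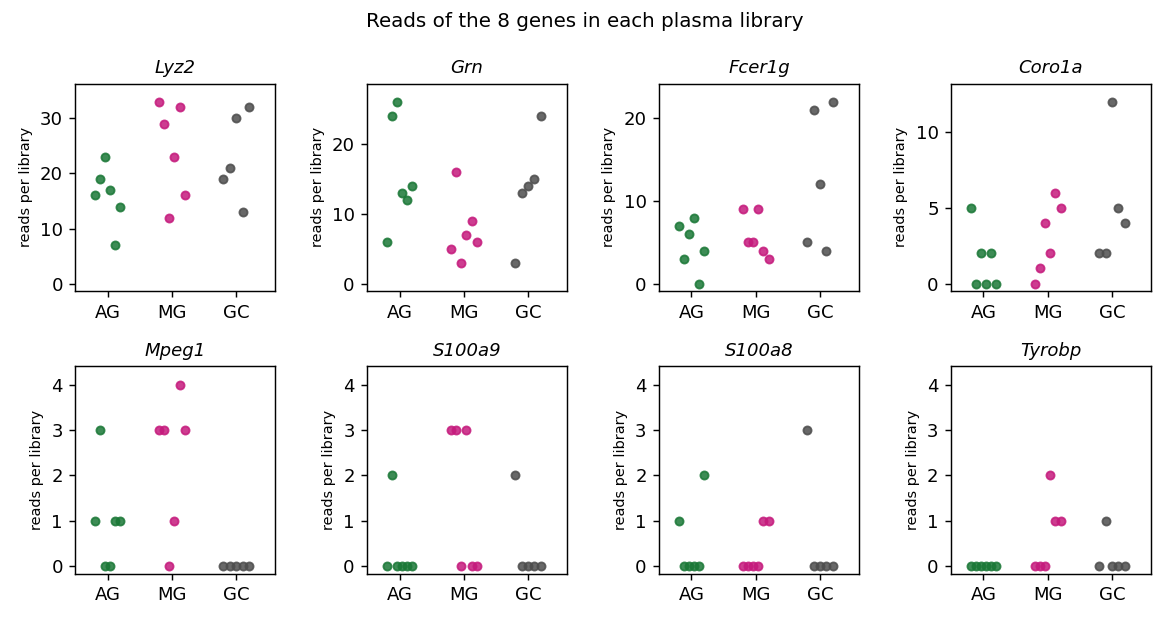
Reads per library (vertical axis, own range in each panel) of the 8 genes in AG, MG and GC plasma, 1 point per mouse library. Lyz2 and Grn have reads in every library, Mpeg1 is at 0 in all 5 GC libraries, and Tyrobp is at 0 in all 6 AG libraries.

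The reads of Lyz2 had to be set against its neighbor Lyz1, because short reads can match both lysozyme genes. In GENCODE M21 on GRCm38, the assembly also called mm10, Lyz2 lies on the minus strand at chr10:117277331-117282321 and Lyz1 beside it at chr10:117287797-117292868. Their coding sequences are both 444 bases long and differ at 22 bases, an identity of 95.0%, with a longest shared run of 118 bases. The stretch where they are most alike, bases 264 to 405 of the coding sequence in exons 2 to 4, shows how a 36-base read could fail to separate them. Capitals mark the 5 bases that differ. The Lyz2 stretch spans chr10:117278163-117280678 and the Lyz1 stretch chr10:117288625-117291066, introns left out.
Lyz2: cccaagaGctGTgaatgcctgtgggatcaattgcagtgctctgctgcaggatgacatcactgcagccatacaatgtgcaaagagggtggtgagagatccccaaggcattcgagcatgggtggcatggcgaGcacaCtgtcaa
Lyz1: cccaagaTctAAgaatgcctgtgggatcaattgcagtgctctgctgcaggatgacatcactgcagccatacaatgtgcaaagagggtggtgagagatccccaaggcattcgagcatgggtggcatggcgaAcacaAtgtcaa

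The first coding exon separates the pair best. Bases 43 to 132 of the coding sequence, at chr10:117282111-117282200 in Lyz2 and chr10:117292707-117292796 in Lyz1, differ at 13 of 90 bases, again in capitals.
Lyz2: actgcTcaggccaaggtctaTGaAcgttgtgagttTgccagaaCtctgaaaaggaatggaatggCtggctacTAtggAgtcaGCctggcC
Lyz1: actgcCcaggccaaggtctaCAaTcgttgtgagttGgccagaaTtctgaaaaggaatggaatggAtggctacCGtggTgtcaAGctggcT

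Of the 1281 words of 36 bases in Lyz2 transcripts, 350 (27.3%) also occur in Lyz1. The files assigned 356 reads to Lyz2 and 3 to Lyz1, 1 in each group. How reads with several matches were counted is not given in the sources used here, so how much of the Lyz2 count this touches is not known. Adding the Lyz1 reads to Lyz2 left its fold change between MG and AG at 0.08 on the log2 scale. The other members share few such words with other genes. Mpeg1 shares 0.375% of its words with Pfpl, and Grn shares 86 of 3603 words (2.39%), all from its isoform Grn-210 and found in 2279 other genes, as repeated sequence is. How many Grn reads fall there is not known. Grn also overlaps the end of Fam171a2 and Coro1a the end of Bola2 on the opposite strand, and the strand setting of the counting is not stated.

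The cell type named by the label was checked against markers that the rule did not use. The neutrophil list held 16 genes of granules and migration, and 10 of them had any read, 48 reads in all. The other 6 had none, namely Camp, Elane, Ctsg, Cebpe, Fpr1 and Stfa2l1, which include granule proteases and the cathelicidin. Mmp9, a matrix protease of late granules, had most with 12 reads, and Csf3r, the receptor for the neutrophil growth factor G-CSF, had 11. The summed level of this list was 0 to 74.4 TMM-normalized CPM in AG, 7.23 to 84.9 in MG and 5.91 to 27.8 in GC. These markers were thus at or near 0 in most libraries.

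The monocyte and macrophage list was better covered but also thin. Reads were found for 19 of its 20 genes, 208 in all, and Ly6c2, which marks inflammatory monocytes, was at 0. Lgals3, the carbohydrate-binding galectin-3, had 39 reads and Cd163, the macrophage receptor that takes up hemoglobin, had 25. The summed level was 21.5 to 317 TMM-normalized CPM in AG, 23.4 to 170 in MG and 23.8 to 106 in GC. No gene of the neutrophil or monocyte list had enough reads for the main test. The 8 genes are therefore described by name and not as a measure of one cell type.

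Red cell and platelet genes had more reads than the 8 genes. The red cell list, with 12 of its 14 genes in the table, held 29034 reads, led by the hemoglobin genes Hba-a2 with 14517 and Hbb-bs with 6054. The 12 platelet genes held 7695, led by the chemokine Ppbp with 4963 and by Nrgn with 752. In the list of genes shared by leukocytes, 17 of 18 genes were in the table with 9956 reads, of which Tmsb4x, an actin-binding peptide, had 8336 and Plek, a major kinase substrate of platelets, had 954. Both are also abundant in platelets. Of the 4 genes of that list in the main fit, 0 passed the adjusted threshold or the criterion of the study in any comparison. The lymphocyte list of 16 genes held 203 reads, with 57 for Ighm, the heavy chain of IgM, and 54 each for Cd74, the invariant chain of antigen presentation, and Igkc, the kappa light chain. Outside blood, 13 hepatocyte genes held 1156 reads, led by Alb with 527 and Trf with 127, and 12 skeletal muscle genes held 300, led by Ttn with 149 and Myh4 with 59.

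**Figure D2:**
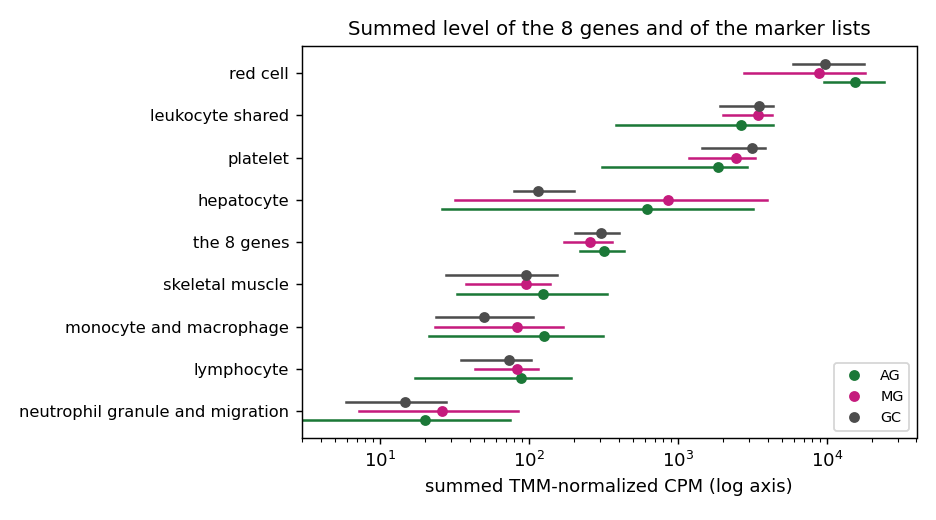
Summed TMM-normalized CPM (log axis) of the 8 genes and of 8 marker lists. Points are group means, lines run from the lowest to the highest library of AG (n = 6), MG (n = 6) and GC (n = 5), and the line of the AG neutrophil list, whose lowest library is at 0, is drawn from the left edge. By group mean the 8 genes lie above the neutrophil, monocyte and lymphocyte lists and below the platelet and red cell lists, while in AG their range overlaps those of the monocyte and platelet lists.

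Tests asked whether the members differed in MG from AG, groups that both flew but differed in gravity, in MG from the ground group, and in AG from the ground group. The 3 comparisons share libraries and are not independent. The main test was edgeR's quasi-likelihood test on the 272 genes that passed a filter on low counts, and of the members only Lyz2, Grn and Fcer1g passed it. A second fit on the 6270 genes with at least 5 reads in all covered all 8.

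No member passed an adjusted p of 0.05 in any comparison of either edgeR fit. In the main fit 0% of all genes passed for MG over AG, 0% for MG over GC and 1.47% for AG over GC. Genes with an unadjusted p under 0.05 numbered 36, 12 and 32 of 272. In the fit on 6270 genes 0.0957%, 0.159% and 0% of genes passed the adjusted threshold, while 820, 856 and 766 had an unadjusted p under 0.05. DESeq2 on the 272 genes called 9, 0 and 8, and of the members it called Grn between MG and AG. The study called genes by p under 0.05 before adjustment with a fold change over 1.5. This criterion was met by 13.2% of the 272 genes for MG over AG, 4.41% for MG over GC and 11.8% for AG over GC, and by Grn alone of the 3 members tested, for MG over AG. In the fit on 6270 genes it was met by 13.1%, 13.7% and 12.2% of genes, and by Grn and Tyrobp between MG and AG and by Mpeg1 in both comparisons with GC. Counts of 1 of 3 and of 1 or 2 of 8 members are too small to set apart from these shares of all genes. The shares also depended on the test used. By edgeR's exact test on the same 6270 genes, 187, 164 and 162 genes had an unadjusted p under 0.05. Neither Tyrobp in MG over AG nor Mpeg1 in AG over GC met the criterion by that test.

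Lyz2, the lysozyme of macrophages and of neutrophil granules, was level across the groups. Its TMM-normalized CPM was 81.8 at the lowest, 130 at the median and 174 at the highest of the AG libraries. The MG libraries ran from 86.8 through a median of 129 to 178. The GC libraries had 132, 74.1, 177, 124 and 127. The groups overlapped almost completely, with AG at a mean of 128 ± 32.4 (SD, n = 6), MG at 134 ± 32.3 (n = 6) and GC at 127 ± 36.6 (n = 5). The log2 fold change of MG over AG was 0.08 (SE 0.34, edgeR adjusted p = 0.988), with an approximate 95% interval from -0.62 to 0.79. That of MG over GC was 0.09 (SE 0.35, edgeR adjusted p = 0.994), and that of AG over GC was 0.01 (SE 0.36, edgeR adjusted p = 0.995). Differences between MG and AG within that interval were not excluded at this depth. The interval is not a limit of detection, and larger differences could also have been missed.

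The same reads gave another picture as a plain share of all counts. The mean of Lyz2 was then 83.3 ± 15.2 CPM in AG, as against 187 ± 84.4 in MG and 165 ± 71.2 in GC. Without scaling factors its log2 fold change of MG over AG was 1.15 (edgeR adjusted p = 0.0726), beside a median of 1.21 over all 272 genes. The median gene thus shifted as much. The part of the 4 large genes in this shift was not tested. Relative to the median of all genes, Lyz2 stayed between -0.26 and 0.15 in the 24 fits run for MG over AG.

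Grn encodes progranulin, a secreted protein that is taken to lysosomes and cut into granulins, and that macrophages make along with many other cells. Its TMM-normalized CPM was 50.0 at the lowest, 128 at the median and 178 at the highest of the AG libraries. In MG the lowest was 21.7, the median 40.5 and the highest 73.2. In GC the libraries had 20.8, 45.9, 82.7, 143 and 95.3. In AG, 5 of 6 libraries had at least 103 and lay above all of MG, and AG replicate 1 with 50.0 lay within the range of MG. The GC range held all of MG and overlapped AG, whose 2 highest libraries lay above it. The AG mean was 127 ± 48.5, the MG mean 42.4 ± 19.4 and the GC mean 77.6 ± 47.1.

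The log2 fold change of Grn in MG over AG was -1.54 (SE 0.46), with an unadjusted p of 0.00301 and an adjusted p of 0.107 in edgeR's quasi-likelihood test. It met the criterion of the study but not the adjusted threshold. Only 5 of the 272 genes had a lower fold change. DESeq2 gave -1.59 with an adjusted p of 0.0273. Leaving out 1 library at a time gave -1.78 to -1.42, with adjusted p from 0.0608 to 0.299 in edgeR. Without scaling factors the fold change was -0.47 (edgeR adjusted p = 0.451) beside the median of 1.21 for all genes, so that Grn lay 1.68 below that median, where it had lain 1.71 below it under TMM. Over the 24 fits run, Grn relative to that median ranged from -1.95 to -0.70, the latter by limma on log2(RPKM + 1), where its fold change was -0.44 (limma adjusted p = 0.476).

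**Figure D3:**
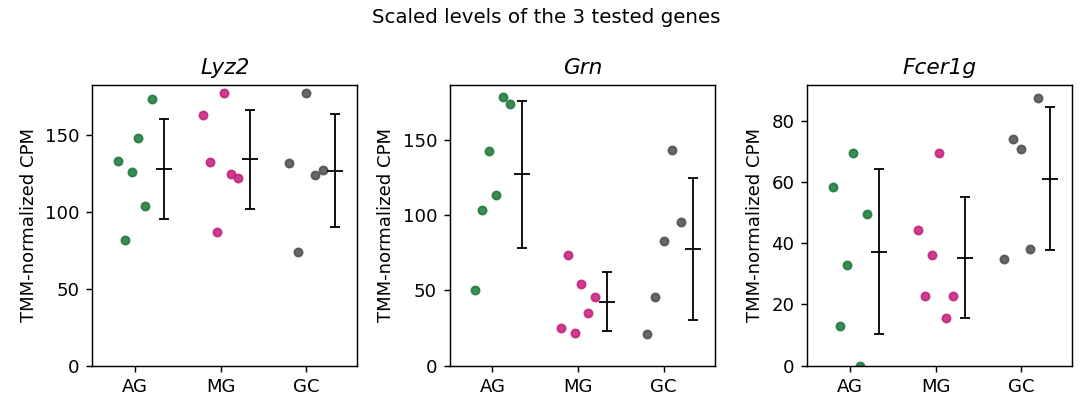
TMM-normalized CPM of Lyz2, Grn and Fcer1g (vertical axes, from 0) in AG, MG and GC, 1 point per library, with the mean and SD beside them in black. Lyz2 means lie at 128, 134 and 127, and the 6 MG values of Grn lie between 21.7 and 73.2, below 5 of the 6 AG values.

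A ratio of 2 members within a library is free of any scaling. Grn reads per Lyz2 read, a ratio chosen after the values were seen and given without a test, were 0.375, 1.26, 1.13, 0.765, 1.71 and 1 in AG replicates 1 to 6. In MG replicates 1 to 6 they were 0.152, 0.552, 0.25, 0.304, 0.281 and 0.375. In GC replicates 1 to 5 they were 0.158, 0.619, 0.467, 1.15 and 0.75. AG had 95 Grn reads to 96 Lyz2 reads, MG 46 to 145 and GC 69 to 115. The AG and MG ranges met at 0.375 and overlapped through AG replicate 1 and MG replicate 2.

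For Grn the ground group was intermediate between AG and MG and was not separated from them. The log2 fold change of Grn was -0.83 in MG over GC (SE 0.48, edgeR adjusted p = 0.994). In AG over GC it was 0.71 (SE 0.47, edgeR adjusted p = 0.541), and without scaling factors the latter was -0.10. Part of the red cell list was also lower in MG than in AG by the criterion of the study, which 23 of all 272 genes met in that direction. Of the 8 red cell genes in the main fit, 0 passed the adjusted threshold, 3 did not meet the criterion and 5 met it, with log2 fold changes of -1.68 for Bpgm, -1.26 for Hbb-bt, -1.50 for Slc4a1, -1.54 for Slc25a37 and -1.32 for Alas2. The summed red cell level was 9611 to 24284 TMM-normalized CPM in AG and 2794 to 18167 in MG. Across libraries, which share depth and scaling factors, its Spearman correlation with Grn was 0.179 over all 17, and within groups it was -0.0857 in AG (n = 6), -0.143 in MG (n = 6) and -0.3 in GC (n = 5). Its part in the result for Grn was not tested. Against GC, Hbb-bt was lower in MG by that criterion with -1.13, Slc25a37 was higher in AG with 1.11, and Bpgm was higher in AG with 1.85 and passed the adjusted threshold (edgeR adjusted p = 0.0332). Alb, albumin of the liver, met the criterion in both comparisons with GC, at 4.27 in MG and 3.43 in AG, but MG replicate 6 held 294 and AG replicate 6 held 116 of its 527 reads. Without these libraries the values were 2.0 and -0.016, and neither met the criterion.

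**Figure D4:**
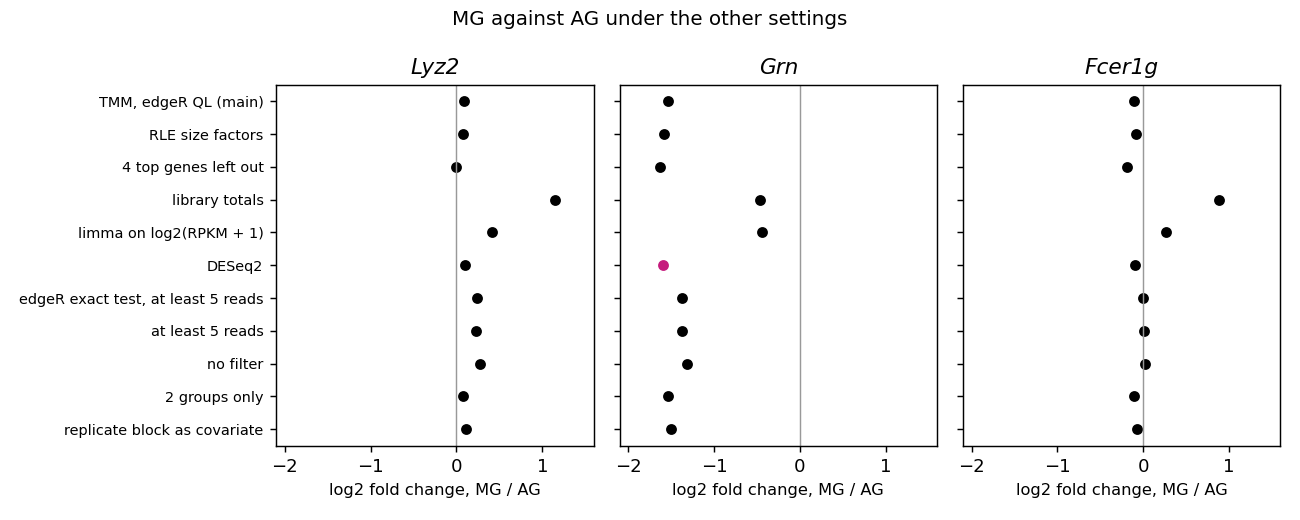
Log2 fold change of MG over AG (horizontal axis) for Lyz2, Grn and Fcer1g under the main fit and 10 other settings (vertical axis), with adjusted p under 0.05 in magenta. Grn lies below 0 in every setting shown and is past the threshold in DESeq2, while Lyz2 and Fcer1g move to 1.15 and 0.88 when library totals replace the scaling factors.

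Fcer1g encodes the gamma chain shared by Fc receptors, which carries their signal into mast cells, macrophages and neutrophils, and also serves the collagen receptor of platelets. Its TMM-normalized CPM was 0 at the lowest, 41.3 at the median and 69.6 at the highest of the AG libraries. MG ran from 15.6 through a median of 29.5 to 69.5, and GC had 34.7, 74.1, 70.9, 38.2 and 87.4. GC held the 3 highest values, and the rest of GC lay within both other groups. The log2 fold change was -0.85 in MG over GC (SE 0.54, edgeR adjusted p = 0.994), -0.74 in AG over GC (SE 0.55, edgeR adjusted p = 0.606) and -0.11 in MG over AG (SE 0.56, edgeR adjusted p = 0.988). Without scaling factors the last 2 values became -1.73 and 0.88 (edgeR adjusted p = 0.0880 and 0.271). GC replicates 2 and 5 gave 21 and 22 of the 64 Fcer1g reads of GC, and AG replicate 5 gave none. The summed platelet level was 1451 to 3826 TMM-normalized CPM in GC, 1191 to 3274 in MG and 312 to 2911 in AG, and its part in the Fcer1g values was not tested. Of the 9 platelet genes in the main fit, 0 passed the adjusted threshold, and Pf4, platelet factor 4, was higher in MG than in AG by the criterion of the study with a log2 fold change of 1.09.

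Tyrobp, also called DAP12, is the partner adaptor that carries activating signals of myeloid receptors. It had 2 reads in MG replicate 4, 1 each in MG replicates 5 and 6 and 1 in GC replicate 2. All 6 AG libraries were at 0. Its unadjusted p between MG and AG in the fit on 6270 genes was 0.0341 and its adjusted p 0.339 in edgeR. The unadjusted p was 0.178 by edgeR's exact test on the same genes and 0.0521 by the quasi-likelihood test without a filter. Neither met the criterion of the study. Under TMM the 4 reads of MG did not exceed the level that 3 reads over all of AG would give, with a ratio of 0.987. On library totals this ratio was 1.83. Without MG replicate 4, which held 2 of the 4 reads, the ratio under TMM was 0.561.

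Coro1a, coronin 1A, binds actin at the leading edge of leukocytes. Its reads were 5, 0, 2, 0, 2 and 0 in AG replicates 1 to 6, and 0, 1, 4, 2, 6 and 5 in MG replicates 1 to 6. In GC replicates 1 to 5 they were 2, 2, 12, 5 and 4. Every GC library had reads, as did 5 of 6 MG and 3 of 6 AG libraries, and the 3 ranges overlapped. The log2 fold change of AG over GC was -1.43 (SE 0.84, edgeR adjusted p = 0.499 over 6270 genes). That of MG over GC was -0.81 (edgeR adjusted p = 0.816) and that of MG over AG 0.63 (edgeR adjusted p = 0.876).

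Mpeg1 encodes perforin-2, a pore-forming protein that macrophages turn on engulfed bacteria. Its reads were 1, 3, 0, 0, 1 and 1 in AG replicates 1 to 6 and 3, 3, 0, 1, 4 and 3 in MG replicates 1 to 6. All 5 GC libraries were at 0. When GC is set to 3 reads over the group, MG was 4.13-fold and AG 2.39-fold higher than GC under TMM. These folds allow for the 0 of GC only, since the reads of MG and AG were taken as counted. With 1 library left out they fell to 2.90 and 1.68 at the lowest. On library totals the folds were 4.26 and 1.33. The ranges met at 0, where 2 AG libraries and 1 MG library also stood. The unadjusted p was 0.00269 between MG and GC (edgeR adjusted p = 0.313 over 6270 genes) and 0.0146 between AG and GC (edgeR adjusted p = 0.401). By edgeR's exact test on the same genes the unadjusted p of AG over GC was 0.0746, which did not meet the criterion. That of MG over GC stayed under 0.05. Between MG and AG the log2 fold change was 0.79 (SE 1.06, edgeR adjusted p = 0.877). These values rest on 20 reads.

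S100a8 and S100a9, the pair that makes calprotectin, an abundant protein of the neutrophil cytosol, had too few reads to compare. S100a8 had 1 and 2 reads in AG replicates 1 and 6, 1 each in MG replicates 5 and 6, and 3 in GC replicate 1. S100a9 had 2 reads in AG replicate 2, 3 each in MG replicates 1, 2 and 4, and 2 in GC replicate 1. GC replicate 1 was the only library with reads of both. The edgeR adjusted p over 6270 genes was between 0.691 and 1 for both genes in all 3 comparisons.

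The summed level of the 8 genes followed Lyz2, Grn and Fcer1g. In TMM-normalized CPM it was 220 at the lowest, 320.2 at the median and 435 at the highest of the AG libraries. MG ran from 174 through 261 to 363, and GC from 205 through 326 to 402. The groups overlapped, with AG at a mean of 321 ± 69.0, MG at 258 ± 62.5 and GC at 304 ± 82.1. The log2 ratios of the means were -0.31 for MG over AG, -0.24 for MG over GC and 0.08 for AG over GC, and they are given without a test.

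As a share of all counts, the sum averaged 208 ± 16.7 CPM over the AG libraries, 350 ± 138 over MG and 382 ± 130 over GC. The 6 AG libraries lay close together, from 190 to 240 CPM. MG ran from 157 to 492 and GC from 190 to 532. The log2 ratio of MG over AG was then 0.75, opposite in sign to that under TMM, and that of AG over GC was -0.87. Outside the 4 large genes the AG share was 2066 ± 248 CPM, the MG share 1486 ± 446 and the GC share 1880 ± 651. The lowest single share, 157 CPM in MG replicate 6, had an exact (Clopper-Pearson) 95% binomial interval of 109 to 218, and the highest, 532 in GC replicate 3, one of 413 to 674. These intervals cover counting error only.

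**Figure D5:**
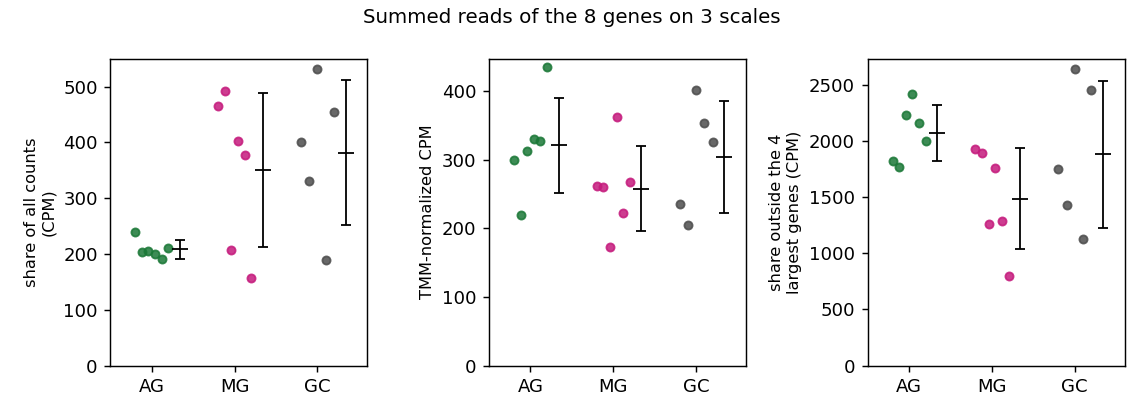
Summed reads of the 8 genes as a share of all counts, as TMM-normalized CPM and as a share of counts outside the 4 large genes (vertical axes in CPM, from 0), 1 point per library with mean and SD in black. AG lies lowest on the first scale, with a mean of 208 CPM, and highest on the other scales, with means of 321 and 2066.

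Levels of the 3 main members were weakly related to each other across libraries. Over the 17 libraries the Spearman correlation of TMM-normalized CPM was 0.0515 between Lyz2 and Grn, 0.436 between Lyz2 and Fcer1g and -0.0294 between Grn and Fcer1g, described without a test since all values of a library share its depth and scaling factor. Lyz2 against the summed monocyte and macrophage list had 0.522, and 0.486 within AG (n = 6), 0.771 within MG (n = 6) and 0.5 within GC (n = 5), and against the red cell list it had 0.422. On shares outside the 4 large genes the former was 0.40 and the latter 0.441. The summed members had 0.441 with that list, -0.588 with the list shared by leukocytes and -0.525 with the platelet list. On those shares these became 0.365, 0.164 and 0.123, so the sign of the last 2 depended on the scale. The genes whose level was most like the summed members were Rps23, a ribosomal protein gene, with 0.748, Lars2, a mitochondrial leucyl-tRNA synthetase gene, with 0.723, Mkrn1 with 0.689, Yipf1 with 0.662 and Rn18s-rs5 with 0.630. Lars2 and Rn18s-rs5 are among the 4 genes that filled the libraries.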

How the data were processed

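Plasma cfRNA of 17 mice was sequenced by the authors, whose software, CLC Genomics Workbench, aligned the read pairs to mm10. The authors deposited, per library, counts (reads per gene, no normalization) and RPKM (scaled by their software to gene length and mapped reads). Strand setting, trimming and multiple matches are not given in the sources used here. A TPM column was not used.

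Counts were tested in R 4.3.3 with edgeR 4.0.16: TMM scaling, filterByExpr (272 genes), all 17 libraries in 1 quasi-likelihood fit without covariates, Benjamini-Hochberg adjustment over all genes tested and a threshold of 0.05. Of the 49585 genes, 12605 had any read and 6270 had at least 5. The biological coefficient of variation was 0.574. The approximate 95% intervals used the fit's degrees of freedom. A fold against a group at 0 was set to a floor of 3 counts over the group. DESeq2 1.42.0, limma 3.58.1 on log2(RPKM + 1), edgeR's exact test, other scalings and leaving out each library were alternatives. Intervals of shares were exact, from scipy 1.17.1 in Python 3.11.15.

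The members and marker lists were chosen with earlier results of these data known. Named were all members, the 2 genes with most reads and all called genes of each list, and the 5 genes most like the summed members. Each library is 1 mouse, and no 2 libraries had near-identical counts (lowest chi-square per degree of freedom 5.46 over 136 pairs). Tested on simulated data for MG against AG, the fit on 272 genes recovered 91.7% of 108 genes changed by a log2 fold of 2, with 1.98% false calls, at a dispersion of 0.329.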

Additional observations from a re-analysis of the deposited data

Results flagged for a closer look

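Of 21 groups of 5 or 6 libraries examined for a library that stands apart, 1 was flagged, where chance gives 1.05. S100a8 in AG replicate 6 was at 24.8 TMM-normalized CPM, far from the other AG libraries by the gap relative to the range. This value is 2 reads.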

How the results depend on the processing

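Of the 3 members in the main fit, 1 was called under another setting, Grn in MG over AG, by DESeq2 and by the criterion of the study. With at least 5 reads that criterion was met by 2, 1 and 1 of 8 members, and the adjusted threshold by 0. By edgeR's exact test at the same filter, Tyrobp in MG over AG (p = 0.178) and Mpeg1 in AG over GC (p = 0.0746) did not meet it. With each library left out in turn, 0 of the 3 members in the main fit were called, and the other 5 were not refitted. The summed members changed sign with the scale. MG over AG went from -0.31 to 0.75 as a share of all counts and to 0.48 as a sum of RPKM, AG over GC from 0.08 to -0.87 and -1.10, and MG over GC moved from -0.24 to -0.63 as a sum of RPKM. The cause was not tested. With library totals the median of all genes was 1.21 in MG over AG, 0.07 in MG over GC and -1.11 in AG over GC, against 0.17, -0.0034 and -0.21 under TMM.

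Some single values, most of them near 0, changed sign without passing the threshold. Fcer1g in MG over AG was 0.0081 with at least 5 reads, 0.023 without a filter, 0.88 with library totals, 0.26 by limma and 0.0023 by the exact test, and ran from -0.40 to 0.16 with 1 library left out. Lyz2 in MG over AG ran from -0.028 to 0.19 with 1 library left out. Lyz2 in MG over GC was -0.017, -0.014, -0.24 and -0.0071 with at least 5 reads, without a filter, by limma and by the exact test, and ran from -0.060 to 0.25. Lyz2 in AG over GC was -0.25, -0.29, -0.65 and -0.24 in the same order, -0.017 with RLE factors, -0.96 with library totals, -0.036 with the replicate block and -0.031 by DESeq2, and ran from -0.14 to 0.16. Grn in AG over GC went from 0.71 to -0.10 with library totals.

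The replicate numbers were not taken as pairs in the main fit. Correlations of deviations between libraries of the same number ran from -0.47 to 0.59. For replicate 1 they were 0.46 (MG, AG), 0.59 (MG, GC) and 0.48 (AG, GC). For replicate 5 they were -0.086, 0.014 and -0.47 in the same order. Whether the libraries of replicate 1 share a factor was not tested. With the replicate block, 3, 0 and 5 genes were called against 0, 0 and 4, and Grn in MG over AG was -1.50. Depth limits 5 of the 8 genes: they had 5 to 52 reads over all libraries.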

Other observations

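Some genes of the marker lists had their reads in very few libraries, and these were named after their values were seen. Marco, a scavenger receptor of macrophages, had 23 reads, of which 22 were in AG replicate 1. Ltf, the lactoferrin of neutrophil granules, had 6 reads, all in MG replicate 4. The summed level of the monocyte and macrophage list was highest in AG replicate 1, at 38 reads or 317 TMM-normalized CPM. Grn was at its lowest AG level in the same library.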
